A study of Homo sapiens with 11 samples.

Results

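The transcripts described here are those with a very short annotated reading frame: a listed length of 30 or less and at least 10 counts in 2 or more of the 6 RNA libraries. After rows with identical counts in all 11 libraries had been merged, 858 of 66016 transcript features met that rule, and 57719 features of any length reached the same RNA minimum. They are called tiny-frame transcripts below, and features of listed length over 30 that reached the RNA minimum (56861) served for comparison. The unit of the listed length is not stated in the sources used here. It was used to choose and to class the transcripts and, where stated, to scale RNA.

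The libraries came from HEK293T, an established line derived from human embryonic kidney and transformed with SV40 large T antigen. Cells were wild type or knocked out for the methyltransferase named CSAM in the labels (current symbol PCIF1), with the knockouts labelled CSAM-KO#1 and CSAM-KO#2 and called knockout 1 and knockout 2 here. No treatment or time point is given, and the labels do not say whether each knockout is a single clone or whether replicates were separate cultures, so the p-values speak for the spread between libraries, possibly of technical origin, and no further. Ribosome footprints were sequenced in 5 libraries, a lone one from wild type and 2 from each knockout, and RNA in 2 libraries of each genotype.

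A ribosome shields the stretch of messenger RNA inside it from nuclease, and the sequenced fragments, called footprints, show which transcripts were being read. The number of footprints relative to the RNA, the translational efficiency, estimates how densely a transcript is occupied. A very short frame offers few positions for a ribosome, and small frames in human cells include short regulatory frames ahead of main coding sequences as well as frames that encode micropeptides. PCIF1 adds a methyl group to an adenosine directly behind the cap of many messenger RNAs and binds the tail of RNA polymerase II.

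Merged totals were 8387752 to 17437453 counts for the footprint libraries and 40346318 to 63551193 for RNA. Tiny-frame transcripts took 0.158% to 0.178% of footprint counts and 0.227% to 0.245% of RNA counts. The files name transcripts only by UCSC-style identifiers, and no table used here pairs these with genes or sequences, so neither PCIF1 nor markers of the cell line were checked, and members are given by identifier and listed length. Where several transcripts share reads, the counts do not tell which of them the reads came from.

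Frames of listed length 0 or below held no reads. Listed lengths ran from -9 to 35982, and all 354 rows at 0 or below had 0 counts in every library, as had the 88482 rows with no length. Among 2985 rows of length 1 to 30, 2070 had an RNA count in some library and 784 had 0 in all 11 libraries. The share of rows with any RNA count was 41.9% at length 2, 44.4% at length 10, 81.4% at length 20 and 78.3% at length 30. The share that reached the RNA minimum was 6.98% at length 2, 13.6% at length 10, 29.9% at length 20 and 45.5% at length 30. Rows just beyond the limit, at length 31, reached it in 48.6% of cases, so the limit of 30 falls on no step in the data.

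**Figure D1:**
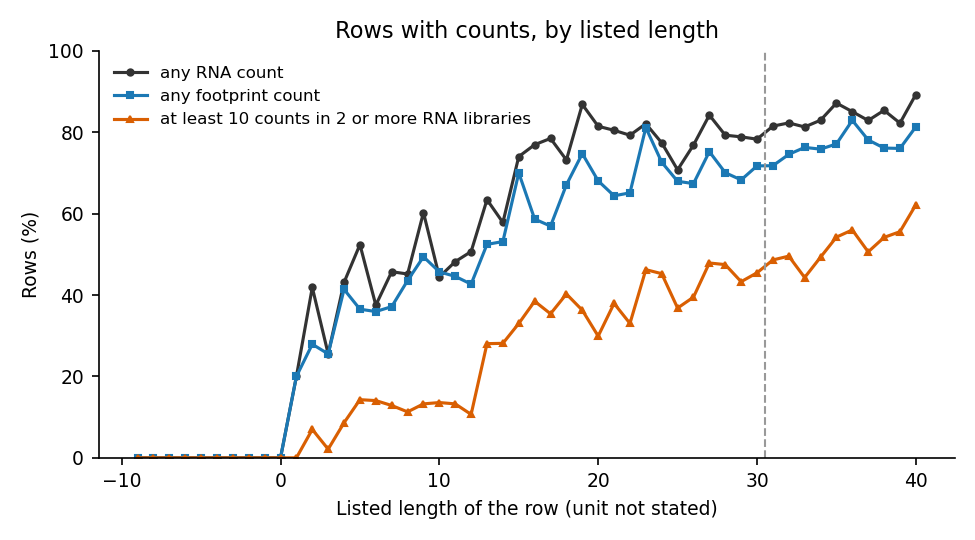
Share of table rows (%) against their listed length from -9 to 40, for rows with any RNA count, any footprint count, and at least 10 counts in 2 or more RNA libraries. The dashed line marks the limit of 30; all 3 curves lie at 0 for lengths of 0 and below and climb to 78.3%, 71.7% and 45.5% at length 30.

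Of the 980 rows that reached the RNA minimum, merging left the 858 transcripts, 73 of them made of more than 1 row. In 3 of these a merged row was longer than 30. The shortest had a listed length of 2, 65 had a length of 1 to 10, 233 of 11 to 20 and 560 of 21 to 30. They were spread over 743 blocks of 20 consecutive table lines. Identifiers between uc057 and uc065 belonged to 848 of the 858 (98.8%), against 57.7% of the other features that reached the RNA minimum.

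Longer transcripts with at least as many reads lay beside nearly all of them. Within 10 table lines either side, 854 of 858 (99.5%) had a longer feature with a count at least as high in each of the 11 libraries, and the share was 99.0% for features of length 31 to 50 set against features over 50. The 4 without such a neighbour were uc001sjo.4 (listed length 16), uc061hjx.1 (28), uc064ijk.1 (16) and uc059dgo.1 (16); the last 3 are named because they complete this small count and were picked after their values were seen. The median mean RNA count was 27.5 for tiny-frame transcripts and 213.5 for features over 30. A longer neighbour with higher counts is therefore likely whether or not reads are shared. The part of shared reads in the results below was not tested.

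Most tiny-frame transcripts were expressed at a low level and carried few footprints. The median over the 858 was a mean RNA count of 27.5 and a mean footprint count of 3.8. At least 10 footprint counts in 2 or more libraries were present in 277 of 858 (32.3%), against 77.1% of features over 30. A footprint in some library was seen in 820, a footprint in each of the 5 libraries in 532 (62.0%, against 90.1% of longer features), and none in any library in 38 (4.43%, against 0.735%).

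The share with footprints rose with listed length. It was 12 of 65 (18.5%) at length 1 to 10, 61 of 233 (26.2%) at 11 to 20, 204 of 560 (36.4%) at 21 to 30 and 1004 of 2199 (45.7%) at 31 to 50. A count minimum is easier to reach for an abundant transcript, so the shares were also taken within 2 ranges of RNA count. Among features with a mean RNA count of 10 to 50, the share was 114 of 498 (22.9%) for tiny-frame transcripts and 29.3% for features over 30. Among those with a mean RNA count over 100 it was 97 of 134 (72.4%) against 96.0%. Depth was not matched in that range, with a median mean RNA count of 202 for tiny-frame transcripts and 456 for features over 30.

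Per library, the footprint to RNA ratio of the median tiny-frame transcript was close to 0.5 in every genotype. The ratio divides the footprint count of a library, scaled to its merged total (CPM), by the mean RNA CPM of its genotype, and transcripts at 0 footprints were kept. The median was 0.507 in wild type, 0.488 and 0.512 in the knockout 1 libraries, and 0.478 and 0.523 in the knockout 2 libraries. On these totals each knockout pair spans the wild-type value. With TMM library sizes, the scaling of the tests below, the medians were 0.546 in wild type, 0.480 and 0.509 for knockout 1, then 0.463 and 0.498 for knockout 2, so that wild type lay above all 4 knockout libraries. Without knockout 2 RNA replicate 2, both knockout 2 values (0.529 and 0.514) lay above the wild-type 0.507. The order of the genotypes in the median ratio therefore depends on the scaling and on single libraries. The rule itself uses the RNA counts in the denominator, so the level of the ratio is a description.

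Features over 30 had a median ratio of 0.700 in wild type, 0.784 and 0.780 for knockout 1, then 0.775 and 0.805 for knockout 2. Tiny-frame transcripts lay below them in all 5 libraries. The gap in the median depended on length: the wild-type median was 0.318 at length 1 to 10, 0.351 at 11 to 20, 0.576 at 21 to 30 and 0.695 at 31 to 50. At length 1 to 10 the median mean footprint count was only 1.4. With footprints and RNA each summed over a class first, the wild-type ratio was 0.891, 0.515, 0.891 and 1.08 in that order, and 0.999 for features over 30. At length 1 to 10 it was 1.02 and 1.13 for knockout 1, then 1.28 and 1.35 for knockout 2. The order by length thus held for the median only. With a mean RNA count of 10 to 50, where both sets have similar depth, tiny-frame transcripts stood at 0.524 in wild type and features over 30 at 0.656. With a mean RNA count over 100, the values were 0.396 and 0.710.

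**Figure D2:**
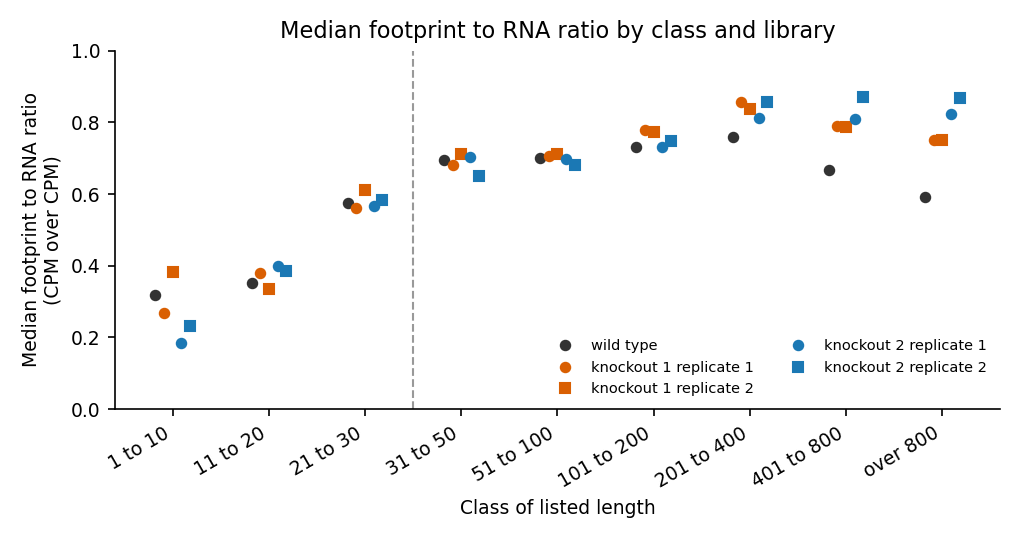
Median footprint to RNA ratio (CPM over CPM) for 9 classes of listed length in each of the 5 footprint libraries; colours give the genotype and symbols the replicate, and the dashed line separates tiny-frame transcripts from longer features. In wild type the median lies at 0.318 for length 1 to 10, at 0.576 for 21 to 30 and at 0.695 for 31 to 50.

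A few transcripts dominated the sums. When footprints and RNA were each summed over the 858 transcripts first, the ratio was 0.734 in wild type, 0.676 and 0.701 for knockout 1, then 0.739 and 0.715 for knockout 2. The 6 transcripts with the most RNA counts held 49.7% of all RNA counts of the set, and uc065ahf.1 alone held 27.8%. The 6 with the most footprints held 30.9% of the footprint counts, and uc001sjo.4 alone held 11.8%.

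The ratio varied widely among tiny-frame transcripts. In wild type its quartiles were 0.141 and 1.31, against 0.369 and 1.23 for features over 30, so the spread was wider at the low end. Depth differed too, with a median mean RNA count of 27.5 against 213.5. With a mean RNA count of 10 to 50, the quartiles were closer, at 0.183 and 1.35 against 0.255 and 1.46. With a mean RNA count over 100 they were 0.188 and 1.18 against 0.408 and 1.17. The shares and replicate differences that follow were not matched for depth. The mean ratio over the 5 libraries was below 0.1 in 113 transcripts (13.2%, against 3.12% of the other features), above 1 in 276 (32.2%, against 38.5%) and above 10 in 16 (1.86%, against 0.652%). Replicates were also further apart: the 2 libraries of a knockout differed by a median of 0.35 and 0.32 on the log2 scale in footprints of the 277 transcripts with enough counts, against 0.21 and 0.18 for longer features.

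**Figure D3:**
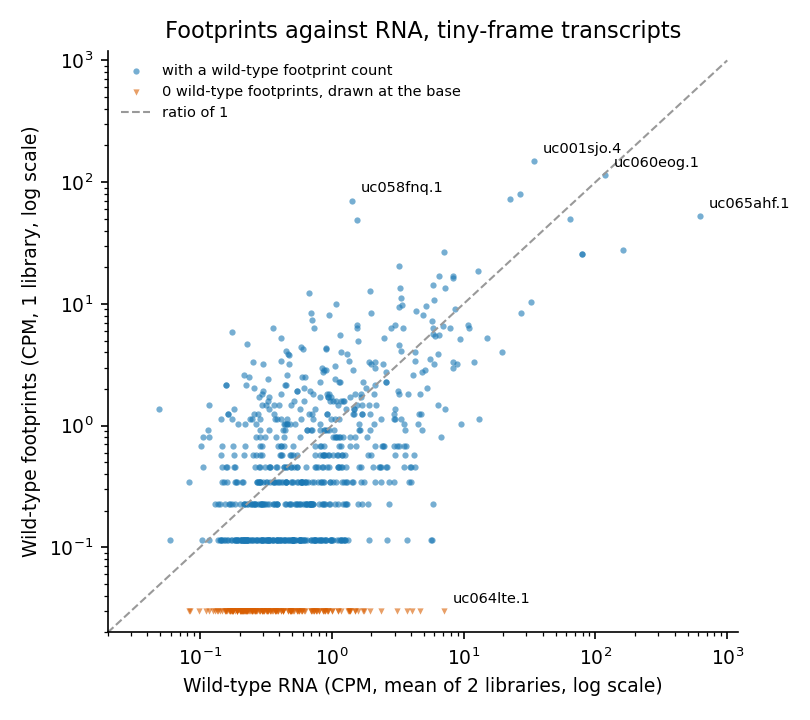
Wild-type footprint CPM (1 library) against wild-type RNA CPM (mean of 2 libraries) for the 858 tiny-frame transcripts, both on log axes, with the line of equal values dashed. Triangles at the lower edge are the 169 transcripts with 0 wild-type footprints; uc065ahf.1 lies far below the line and uc058fnq.1 far above it.

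The most abundant tiny-frame RNA was uc065ahf.1, of listed length 16. Its RNA stood at 644 and 609 CPM in wild type, 609 and 646 for knockout 1, then 701 and 687 for knockout 2. Per unit of listed length this is a mean of 40.6 CPM, against 5.68 for the next most abundant, uc063kwy.1 (length 30), and a median of 0.0278 over the 858. Footprints on uc065ahf.1 were few for so much RNA, at 52.4 CPM in wild type, 35.8 and 26.9 for knockout 1, then 22.6 and 17.8 for knockout 2. The mean ratio, 0.0484 over the 5 libraries, was the lowest among the 159 transcripts with at least 10 counts in all 5 footprint libraries.

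Among the other abundant ones the ratio spanned over an order of magnitude. For uc063kwy.1 it was 0.170 in wild type, 0.204 and 0.247 for knockout 1, then 0.219 and 0.175 for knockout 2. For uc060eog.1 (length 24) it was 0.968 in wild type, 0.875 and 0.812 for knockout 1, then 0.811 and 0.780 for knockout 2. Wild type was lowest for uc063kwy.1, by a margin smaller than the gap between replicates, and highest for uc060eog.1, whose translational efficiency fell in knockout 2 by -0.44 ± 0.14 on the log2 scale (edgeR adjusted p = 0.0443).

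A further pair of abundant transcripts sat between these. The ratio of uc058kmq.1 (length 29) was 0.764 in wild type, 0.567 and 0.586 for knockout 1, then 0.717 and 0.728 for knockout 2. That of uc058icl.1 (length 30) was 0.327 in wild type, 0.260 and 0.350 for knockout 1, then 0.650 and 0.411 for knockout 2. Neither was called in translational efficiency in any comparison.

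The sixth, uc001sjo.4 (length 16), was the tiny-frame transcript with the most footprints. It had 150 CPM of footprints in wild type, 165 and 202 for knockout 1, then 223 and 241 for knockout 2, and 30.1 and 38.8 CPM of RNA in wild type, 43.8 and 37.2 for knockout 1, then 39.7 and 44.7 for knockout 2. The ratio was 4.34 in wild type, 4.06 and 5.00 for knockout 1, then 5.28 and 5.71 for knockout 2. It is also the most abundant of the 4 transcripts that no longer neighbour matched in counts, and longer features within 10 lines had a mean ratio of 0.747.

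The highest ratios among transcripts with at least 10 counts in all 5 footprint libraries rested on very little RNA. The top 2, uc060rkf.1 (length 26) and uc059fqv.1 (length 10), had mean RNA levels of 0.143 and 0.352 CPM. Footprints on uc060rkf.1 were steady, at 5.82 CPM in wild type, 4.75 and 5.84 for knockout 1, then 5.22 and 6.03 for knockout 2, and its mean ratio was 44.9 ± 17.4 (SD over 5 libraries). With RNA that low, the ratio is imprecise.

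Better measured was uc058fnq.1 (length 24), with 70.3 CPM of footprints in wild type and RNA between 1.40 and 2.60 CPM. Its ratio was 49.1 in wild type, 24.5 and 27.9 for knockout 1, then 21.1 and 18.5 for knockout 2. Wild type exceeded both knockouts. The list of high ratios went on with uc062wte.1 (length 17, mean 26.0), uc060akt.1 (length 27, mean 22.7) and uc065cdj.1 (length 19, mean 21.6), of which uc065cdj.1 had 36.8 to 48.4 CPM of footprints.

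At the other end, uc064lte.1 (length 28) had no footprint in any library although its RNA was 8.07 and 6.20 CPM in wild type, 7.96 and 7.99 for knockout 1, then 6.72 and 5.20 for knockout 2. A count of 0 in the wild-type library allows up to 0.421 CPM (exact Poisson 95% interval, counting error only), and 3 counts over all 5 footprint libraries would correspond to a ratio of 0.00788. Also without footprints were uc062pvt.1 (length 23, RNA 1.60 CPM), uc061bsn.1 (length 2, 1.20 CPM) and uc061cgo.1 (length 16, 1.00 CPM), where the same limit on the ratio is 0.0346, 0.0460 and 0.0551. These limits lie below the set's median ratio.

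Other abundant transcripts with few footprints were uc060wpl.1 (length 30, mean ratio 0.0539), uc059fer.1 (length 23, 0.0827), uc064uxj.1 (length 26, 0.127) and uc065bac.1 (length 30, 0.128). On uc060wpl.1 the RNA was 11.2 to 14.2 CPM and the footprints 1.14 CPM in wild type, 0.761 and 0.596 for knockout 1, then 0.631 and 0.329 for knockout 2. All knockout libraries lay under the wild-type value, but its exact Poisson interval of 0.547 to 2.1 CPM covers 3 of the 4.

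Ratios of tiny-frame transcripts followed those of their longer neighbours only loosely. Over the 277 with enough footprints, the log2 ratio of a transcript and that of its longer neighbours within 10 lines correlated with Pearson's r = 0.32 and Spearman's rho = 0.31 across transcripts, which share libraries, depth and in part reads, and are not independent. Of these 277, which entered by their footprint counts, 94 had a lower ratio than their neighbours, with medians of 1.74 for the transcripts and 1.04 for the neighbours. Over all 845 transcripts with measured neighbours, 521 (61.7%) had the lower ratio, with medians of 0.549 for the transcripts and 0.778 for the neighbours. At the limit of the rule, the most abundant transcripts of length 30, uc063kwy.1 and uc058icl.1, had mean ratios of 0.203 and 0.400, and those of length 31, uc060xgq.1 and uc058qby.1, had 0.680 and 0.458.

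In RNA, few tiny-frame transcripts differed between genotypes. Each change was tested with edgeR's quasi-likelihood test and called at an adjusted p under 0.05 over all features tested. In knockout 1, 7 of 858 were called, 5 higher and 2 lower than wild type (0.816%). Of all features tested 4.26% were called, 2.18% higher and 2.08% lower. In knockout 2, 27 were called, 21 higher and 6 lower (3.15%). The share over all features was 12.3%, with 5.9% higher and 6.4% lower. Between the knockouts 11 were called, 7 higher and 4 lower in knockout 2 (1.28%), beside 6.53% of all features, 3.01% higher and 3.52% lower.

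Those shares are lower than the background, and the precision was lower too: the median SE of the log2 change in knockout 1 was 0.38 for tiny-frame transcripts and 0.16 for all features. The median log2 change against wild type was 0.045 in knockout 1 and 0.068 in knockout 2, against -0.0025 and 0.0011 for all features. The counts depended on single libraries: without wild-type RNA replicate 2 they became 19 and 52, without knockout 1 RNA replicates 1 or 2 the first became 1 or 2, and without knockout 2 RNA replicate 2 or wild-type RNA replicate 1 the second became 11 or 13. The excess of higher over lower calls in knockout 2 was absent without wild-type RNA replicate 1 (6 higher, 7 lower) and without knockout 2 RNA replicate 1 (8 higher, 10 lower). The third became 5 or 6 without knockout 1 RNA replicate 1 or 2. In bulk RNA, fewer cells with a transcript and less of it per cell cannot be told apart.

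The RNA change that stood out was on uc065apf.1 (length 15). Its RNA was 1.64 and 1.34 CPM in wild type, 4.49 and 4.34 for knockout 1, then 1.15 and 0.874 for knockout 2, so both knockout 1 libraries were high and the other 4 low, without overlap. It rose in knockout 1 by a log2 change of 1.58 ± 0.20 (SE, edgeR adjusted p = 2.84e-06) and fell in knockout 2 against knockout 1 with -2.07 ± 0.22 (adjusted p = 4.79e-08). Against wild type the change in knockout 2 was -0.49 ± 0.23 (edgeR adjusted p = 0.18). Footprints were not called in knockout 1 (0.18 ± 0.47, edgeR adjusted p = 0.879). They stood at 1.83 CPM in wild type, 2.19 and 2.27 for knockout 1, then 0.401 and 0.877 for knockout 2. The log2 change in footprints between the knockouts was -1.93 ± 0.44 (edgeR adjusted p = 0.00129). Both knockout 2 libraries held under 10 footprint counts, so the transcript met the footprint minimum only through wild type and knockout 1, where it is high. That footprint call therefore carries no weight here.

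Other RNA changes in knockout 1 were smaller. RNA of uc064eor.1 (length 19) was 2.42 and 2.77 CPM in wild type, 4.68 and 3.97 for knockout 1, then 4.12 and 3.72 for knockout 2. It rose in both knockouts without overlap with wild type, by 0.76 ± 0.17 and 0.67 ± 0.17 on the log2 scale (edgeR adjusted p = 0.0066 and 0.00872). A rise in knockout 1 was also called for uc064xaw.1 (length 28, log2 0.94 ± 0.27, edgeR adjusted p = 0.039). A fall was called for uc064fqg.1 (length 23), from 7.24 and 9.33 CPM in wild type to 5.06 and 5.77 in knockout 1 (log2 -0.58 ± 0.14, edgeR adjusted p = 0.0143). Each of these 3 knockout 1 calls was lost without knockout 1 RNA replicate 1, with edgeR adjusted p = 0.199, 0.354 and 0.278, and the change of uc064fqg.1 was -0.38 without wild-type RNA replicate 2.

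In knockout 2 the largest rises among adequately counted transcripts were on uc065bsd.1, uc058pqq.1 and uc060qxk.1. RNA of uc065bsd.1 (length 27) was 0.504 and 0.409 CPM in wild type, 0.248 and 0.282 for knockout 1, then 1.24 and 0.851 for knockout 2, and the groups did not overlap. Its log2 change was 1.26 ± 0.35 against wild type and 2.01 ± 0.39 against knockout 1 (edgeR adjusted p = 0.0149 and 0.000895). For uc058pqq.1 (length 25) RNA rose by 1.06 ± 0.28 and for uc060qxk.1 (length 22) by 0.89 ± 0.27 on the log2 scale (edgeR adjusted p = 0.0125 and 0.0318). The call on uc060qxk.1 was lost in 6 of 10 alternatives, and its change was 0.43 without wild-type RNA replicate 1 and 1.47 without replicate 2. Leaving out 1 library also ended the calls on uc065bsd.1 and uc058pqq.1 against wild type, in 2 of 9 and 2 of 10 alternatives.

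Falls in knockout 2 were called for uc061cgo.1, uc062vsu.1 and uc065bac.1. RNA of uc061cgo.1 was 1.26 and 1.5 CPM in wild type and 0.824 and 0.448 in knockout 2, a log2 change of -1.03 ± 0.30 (edgeR adjusted p = 0.0218). Knockout 1 lay between, at 0.942 and 1.05 CPM. The log2 change was -0.59 ± 0.19 for uc062vsu.1 (length 18) and -0.49 ± 0.14 for uc065bac.1 (edgeR adjusted p = 0.0373 and 0.0166). Without wild-type RNA replicate 1 these were -0.32 and -0.28 (edgeR adjusted p = 0.412 and 0.295), and without knockout 2 RNA replicate 2 they were -0.33 and -0.38 (adjusted p = 0.404 and 0.2). The change of uc062vsu.1 was -0.91 without knockout 2 RNA replicate 1. That of uc061cgo.1 was -0.65 (edgeR adjusted p = 0.284) without knockout 2 RNA replicate 2 and -1.55 without replicate 1.

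Between the knockouts, uc064yej.1 (length 27) fell in both assays in knockout 2. Its RNA was 6.64 and 6.49 CPM in wild type, 9.37 and 7.4 for knockout 1, then 5.16 and 3.76 for knockout 2. Its footprints were 5.59 CPM in wild type, 5.23 and 4.29 for knockout 1, then 2.06 and 2.41 for knockout 2. The log2 change from knockout 1 to knockout 2 was -0.86 ± 0.16 in RNA and -1.11 ± 0.27 in footprints (edgeR adjusted p = 0.000475 and 0.0023), and that in translational efficiency -0.26 ± 0.32 (adjusted p = 0.83). The RNA call was lost without knockout 1 RNA replicate 1 (edgeR adjusted p = 0.0576), and the footprint call without knockout 1 or knockout 2 footprint replicate 1 (adjusted p = 0.105 and 0.0926).

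Footprints could be tested on the 277 transcripts with enough counts. These passed a minimum that 9 of them reached only through knockout 2, and 63 had under 10 counts in wild type, so a high knockout value was part of how some entered. In knockout 1, 18 were called, 4 higher and 14 lower than wild type (6.5%). Of all features tested for footprints 6.03% were called, 2.4% higher and 3.63% lower. In knockout 2, 44 were called, 21 higher and 23 lower (15.9%), and over all features 15.8%, with 7.13% higher and 8.66% lower. Between the knockouts 22 were called, 15 higher and 7 lower in knockout 2 (7.94%), beside 8.32% of all features, 3.77% higher and 4.54% lower.

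Over the tiny-frame transcripts as a whole, these shares are near the background. Wild type had a single footprint library, taken to vary as much as the knockout replicates do, and leaving out a knockout replicate changed the first count to between 8 (without knockout 1 replicate 2) and 32 (without knockout 1 replicate 1), the second to 22 (without knockout 2 replicate 1) and the third to 6 (without knockout 2 replicate 1) or 12 (without knockout 1 replicate 1). DESeq2 called 4, 8 and 1.

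The clearest rise in footprints was on uc059fqv.1. Footprints stood at 6.28 CPM in wild type, 10.1 and 10.5 for knockout 1, then 20.1 and 23.1 for knockout 2, so the genotypes were in separate steps. The change in knockout 2 was 1.68 ± 0.21 on the log2 scale against wild type and 1.07 ± 0.15 against knockout 1 (edgeR adjusted p = 2.42e-09 and 2.28e-08), and in knockout 1 it was 0.61 ± 0.24 (adjusted p = 0.118). Its RNA was 0.283 and 0.429 CPM in wild type, 0.248 and 0.444 for knockout 1, then 0.304 and 0.403 for knockout 2, with full overlap.

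Several other transcripts gained footprints in a knockout. Footprints on uc058pqq.1 were 6.28 CPM in wild type, 10.6 and 17.4 for knockout 1, then 24.8 and 16.6 for knockout 2, and rose in knockout 2 by 1.67 ± 0.29 on the log2 scale (edgeR adjusted p = 0.000223). On uc060akt.1 they were 2.51 CPM in wild type, 4.66 and 7.03 for knockout 1, then 7.17 and 7.34 for knockout 2, with rises of 1.09 ± 0.35 and 1.43 ± 0.33 (edgeR adjusted p = 0.0412 and 0.000796). Knockout 1 rises were also called for uc058ftr.1 (length 13, log2 1.02 ± 0.31, edgeR adjusted p = 0.0345) and for uc057bzv.1 (length 8), one of the shortest frames, at 4.0 CPM in wild type and 7.80 and 9.30 in knockout 1 (0.99 ± 0.28, adjusted p = 0.0203). Without knockout 1 footprint replicate 2 the knockout 1 calls on uc060akt.1, uc058ftr.1 and uc057bzv.1 were lost, with edgeR adjusted p = 0.283, 0.191 and 0.083.

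Losses of footprints in knockout 1 were called for uc063kpj.1, uc065biq.1 and uc058adc.1. Footprints on uc058adc.1 (length 19) were 6.39 CPM in wild type, 2.85 and 3.10 for knockout 1, then 3.27 and 3.73 for knockout 2, all 4 knockout libraries being low. Its log2 change was -1.20 ± 0.31 in knockout 1 and -0.98 ± 0.29 in knockout 2 (edgeR adjusted p = 0.00696 and 0.0116).

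Between the knockouts, footprints on uc063kok.1 (length 18) were higher in knockout 2, at 7.17 and 6.47 CPM against 3.80 and 3.58 in knockout 1 and 2.74 in wild type (log2 0.91 ± 0.23, edgeR adjusted p = 0.00422). Those on uc060ide.1 (length 14) were lower, at 3.33 and 2.19 CPM against 5.51 and 6.08 in knockout 1 and 6.39 in wild type (-0.98 ± 0.24, edgeR adjusted p = 0.00391). On uc063kok.1, knockout 1 lay between the lone wild-type library and knockout 2. On uc060ide.1, knockout 1 lay nearer to wild type than to knockout 2. Footprints on uc062wte.1 were 3.20 CPM in wild type, 5.32 and 5.36 for knockout 1, then 3.10 and 3.40 for knockout 2 (-0.72 ± 0.24 between the knockouts, edgeR adjusted p = 0.0463), a call lost without any 1 of the 4 knockout footprint libraries. Without knockout 2 footprint replicate 1 the call on uc063kok.1 was lost, and without replicate 2 that on uc060ide.1 (edgeR adjusted p = 0.123 and 0.0892).

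The change in translational efficiency, tested as the change in footprints minus the change in RNA, was mostly downward where it was called. In knockout 1, 6 of 277 were called, 1 higher and 5 lower than wild type (2.17%). Of all features tested for translational efficiency 1.2% were called, 0.191% higher and 1.01% lower. In knockout 2, 20 were called, 5 higher and 15 lower (7.22%), and over all features 8.15%, with 2.64% higher and 5.5% lower. Between the knockouts 1 was called, lower in knockout 2 (0.361%), beside 0.504% of all features, 0.059% higher and 0.445% lower. An unadjusted p under 0.05 was seen for 42 of 277 in knockout 1 (15.2%, against 13.4% of all features), 60 in knockout 2 (21.7%, against 22.7%) and 35 between the knockouts (12.6%, against 11.3%). The 21 transcripts called in either knockout lay in 19 blocks of 20 lines.

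The direction of those calls was also that of the background, where 445 of the 529 calls in knockout 1 and 2427 of the 3593 in knockout 2 were lower. The median log2 change of the 277 was -0.19 in knockout 1 and -0.17 in knockout 2, against 0.025 and 0.026 over all features tested. It was -0.069 and -0.086 over 820 transcripts when no count minimum was set. With a length limit of 50 it was -0.24 and -0.19 over 1283 features, so the shift was not particular to tiny-frame transcripts. By class it was 0.51 and 0.046 at length 1 to 10 (12 transcripts), -0.16 and -0.15 at 11 to 20, and -0.24 and -0.18 at 21 to 30. Without wild-type RNA replicate 2 it was -0.31 and -0.28 over the 277, and without wild-type RNA replicate 1 it was -0.19 and -0.084. The count in knockout 1 was 0 without knockout 1 footprint replicate 2, 2 without knockout 1 RNA replicate 1 and 13 without wild-type RNA replicate 2. In knockout 2 it was 10 without knockout 2 footprint replicate 1. Between the knockouts it was 0 without knockout 1 footprint replicate 1 or either knockout 1 RNA library, and 2 without knockout 2 footprint replicate 2 or either wild-type RNA library.

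**Figure D4:**
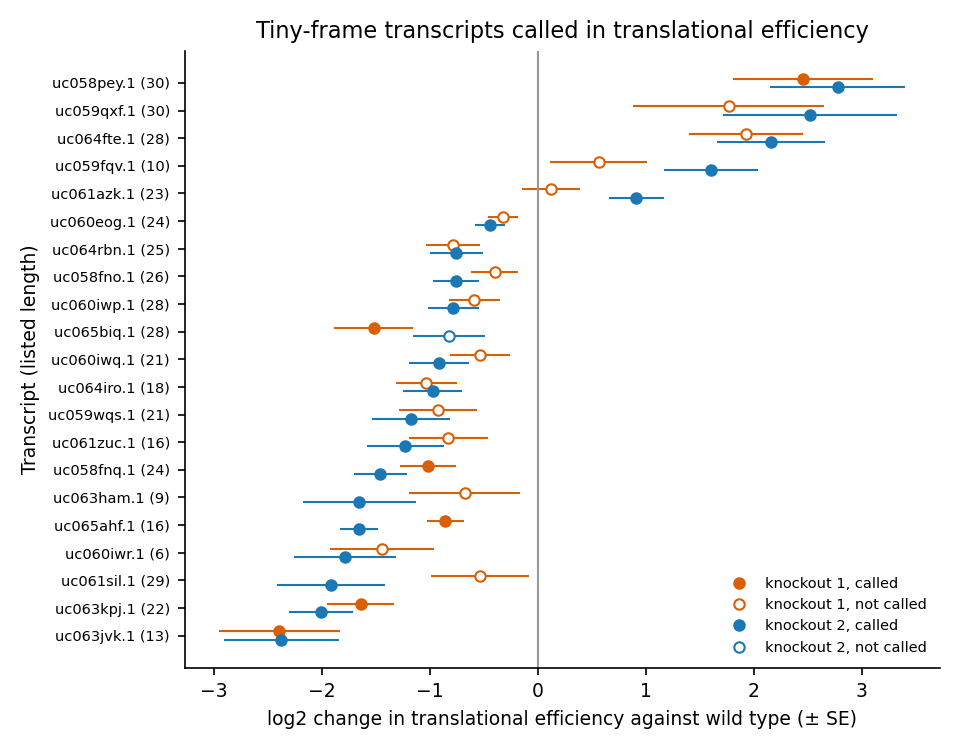
Log2 change in translational efficiency against wild type, with its SE, for the 21 tiny-frame transcripts called in knockout 1 or knockout 2, ordered by the change in knockout 2; filled points passed the adjusted p threshold and open points did not, and the listed length is in parentheses. Of these, 16 lie below 0 in both knockouts and 5 above 0; both sets of values use the same lone wild-type footprint library.

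Among called transcripts with a mean of at least 20 counts in each group of both assays, the largest fall in either knockout was on uc063kpj.1 (length 22). Its footprint level was 10.8 CPM in wild type, 5.32 and 2.86 for knockout 1, then 4.13 and 4.17 for knockout 2, and its RNA 5.4 and 6.60, 7.04 and 6.25, and 7.76 and 8.76 CPM in the same order of genotypes. The ratio was 1.81 in wild type, 0.801 and 0.431 for knockout 1, then 0.500 and 0.504 for knockout 2. All 4 knockout libraries were under 1 and the wild-type library was well above.

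Translational efficiency of uc063kpj.1 fell by a log2 change of -1.64 ± 0.31 in knockout 1 and -2.01 ± 0.30 in knockout 2 (edgeR adjusted p = 0.00444 and 2.32e-05). Over 13 alternatives the second ranged from -2.17 to -1.85 and passed the threshold in each, with a highest adjusted p of 0.000766. The first ranged from -2.18 to -1.31 and missed it in 1, with adjusted p = 0.0703. Longer features within 10 lines of it had a mean ratio of 0.629.

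On uc065ahf.1, the abundant transcript described above, footprints fell, and RNA was not called, with log2 changes of 0.03 ± 0.08 and 0.22 ± 0.08 (edgeR adjusted p = 0.904 and 0.0792). The ratio was 0.0836 in wild type, 0.0571 and 0.0429 for knockout 1, then 0.0326 and 0.0256 for knockout 2, in steps without overlap. The log2 change in translational efficiency was -0.86 ± 0.17 in knockout 1 and -1.66 ± 0.17 in knockout 2 (edgeR adjusted p = 0.00867 and 1.68e-07). It was the 1 transcript called between the knockouts, at -0.80 ± 0.16 (edgeR adjusted p = 0.0105). That last call was lost in 4 of 15 alternatives, with a highest adjusted p of 0.366, whereas the call in knockout 2 held in all 13, with values from -1.89 to -1.5.

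On uc058fnq.1, whose ratios are given above, footprints fell from 70.3 CPM in wild type to 43.5 and 49.6 for knockout 1, then 44.5 and 39.1 for knockout 2. Its translational efficiency fell by -1.02 ± 0.26 and -1.46 ± 0.25 on the log2 scale (edgeR adjusted p = 0.0389 and 0.000239). The ratio fell by a larger factor than the footprints, as mean RNA CPM was also higher in each knockout than in wild type. The knockout 1 call missed the threshold in 7 of 13 alternatives. A transcript 2 lines away, uc058fno.1 (length 26), had ratios of 2.98 in wild type, 2.28 and 2.65 for knockout 1, then 1.86 and 2.09 for knockout 2, and a log2 change in knockout 2 of -0.76 ± 0.21 (edgeR adjusted p = 0.0324). The reads of this pair may overlap and cannot be told apart.

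A fall in knockout 1 was called for uc065biq.1 (length 28). Footprints were 6.28 CPM in wild type, 3.71 and 1.67 for knockout 1, then 4.65 and 4.28 for knockout 2, and the ratio 1.07, 0.540 and 0.243, and 0.697 and 0.642. The log2 change was -1.52 ± 0.37 in knockout 1 and -0.82 ± 0.33 in knockout 2 (edgeR adjusted p = 0.0285 and 0.127). The difference between the knockouts was 0.70 ± 0.32 (edgeR adjusted p = 0.393), so the values do not show that they differ. The knockout 1 call was lost without knockout 1 footprint replicate 2 or RNA replicate 1 (edgeR adjusted p = 0.236 and 0.121).

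One of the shortest frames with a called change was uc060iwr.1, of listed length 6. Its ratio was 2.52 in wild type, 0.769 and 1.31 for knockout 1, then 0.722 and 0.977 for knockout 2. The change in knockout 2 was -1.79 ± 0.47 (edgeR adjusted p = 0.0133) and in knockout 1 -1.44 ± 0.48 (adjusted p = 0.141), and the first was lost without knockout 2 footprint replicate 1 (adjusted p = 0.0908). The 2 rows just before it in the table, uc060iwp.1 (length 28) and uc060iwq.1 (length 21), were called lower in knockout 2 as well, at -0.78 ± 0.24 and -0.92 ± 0.28 (edgeR adjusted p = 0.033 and 0.0319). The 3 transcripts are adjacent and are not independent.

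The rise with the most counts was on uc061azk.1 (length 23). There, footprints reached 6.39 CPM in wild type, 8.56 and 8.23 for knockout 1, then 14.2 and 11.2 for knockout 2, over RNA of 10.9 and 10.9, 11.7 and 12.5, and 10.2 and 10.9 CPM. The ratio was 0.586 in wild type, 0.707 and 0.680 for knockout 1, then 1.35 and 1.06 for knockout 2, with knockout 2 apart. The log2 change was 0.91 ± 0.25 in knockout 2 and 0.12 ± 0.27 in knockout 1 (edgeR adjusted p = 0.0189 and 0.895). The difference between the knockouts was 0.79 ± 0.20 (edgeR adjusted p = 0.058), and the knockout 2 call was lost without knockout 2 footprint replicate 1 (adjusted p = 0.165).

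**Figure D5:**
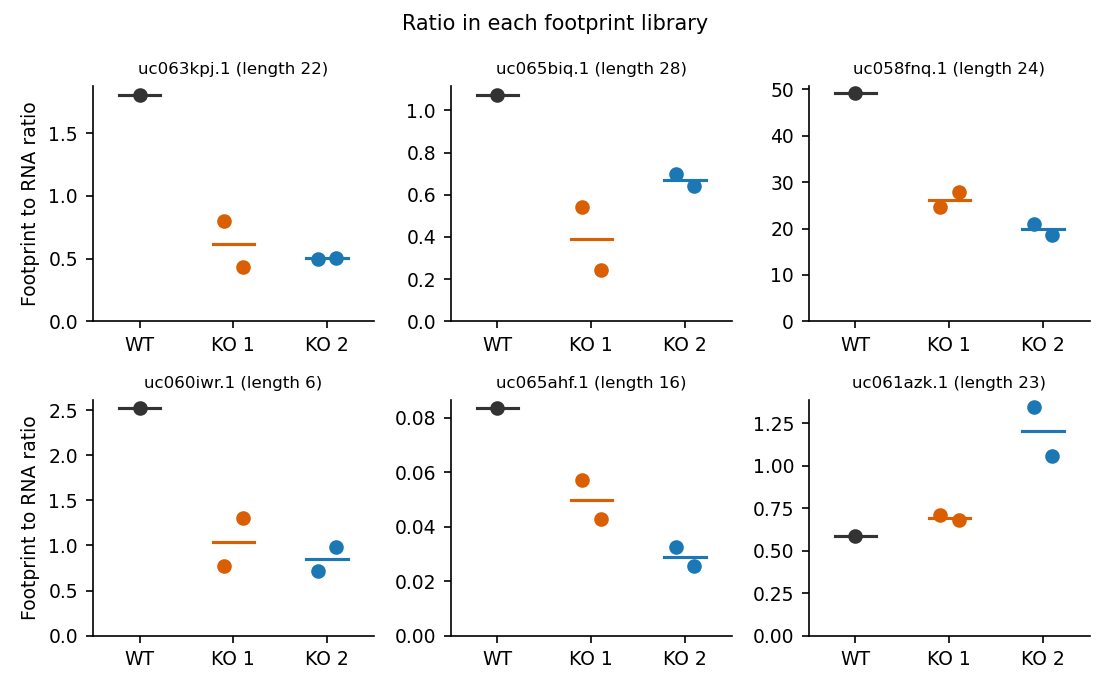
Footprint to RNA ratio in each of the 5 footprint libraries for 6 tiny-frame transcripts with a called change in translational efficiency; each panel starts at 0 and has its own scale, points are libraries and bars are means of a genotype, with a single library for wild type. In uc063kpj.1 the wild-type ratio of 1.81 stands above 0.801 and 0.431 for knockout 1, then 0.500 and 0.504 for knockout 2, and in uc061azk.1 the knockout 2 libraries stand above the rest.

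The calls on uc063jvk.1 and uc058pey.1, picked here after their values were seen, rest on lower counts. Translational efficiency of uc063jvk.1 (length 13) fell by -2.39 ± 0.56 in knockout 1 and -2.37 ± 0.53 in knockout 2 (edgeR adjusted p = 0.0237 and 0.00361), from a ratio of 1.74 in wild type to 0.387 and 0.323, and 0.294 and 0.511. On uc058pey.1 (length 30) the ratio was 0.194 in wild type, 1.18 and 1.16 for knockout 1, then 1.61 and 1.29 for knockout 2. Its wild-type value rests on 4 footprint counts from 1 library, and it met the footprint minimum only through the knockout libraries, where it is high, so its call as higher in both knockouts carries no weight here. Among the other rises in knockout 2, uc064fte.1 had 7 wild-type footprint counts and uc059qxf.1 had 3, and both entered in the same way. The other 6 calls that were lower in knockout 2 are shown by identifier in the plot of called changes. So is the remaining rise of the 5 called in knockout 2, which is not described here.

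None of the 4 transcripts without a longer neighbour of equal counts was called in translational efficiency. Calls were made for 2.17% of tiny-frame transcripts in knockout 1 and 7.22% in knockout 2, beside 1.2% and 8.15% of all features. With 4 transcripts, the absence of a call carries no weight. The ratio of uc061hjx.1 was 2.22 in wild type, 1.68 and 1.99 for knockout 1, then 2.12 and 1.66 for knockout 2. That of uc064ijk.1 was 2.61, 1.84 and 1.03, and 1.27 and 1.36, and that of uc059dgo.1 was 2.89, 2.20 and 1.09, and 1.21 and 1.20. In each of these, all knockout libraries lay under the lone wild-type library. The last pair had log2 changes in knockout 2 of -1.16 ± 0.54 and -1.43 ± 0.50 (edgeR adjusted p = 0.267 and 0.103). For uc001sjo.4 the change was -0.06 ± 0.19 in knockout 1 and 0.18 ± 0.19 in knockout 2 (edgeR adjusted p = 0.924 and 0.629), while its footprints rose in knockout 2 by 0.54 ± 0.11 and its RNA by 0.37 ± 0.11 on the log2 scale (adjusted p = 0.000245 and 0.0348).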

How the data were processed

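The authors deposited 1 table per library with raw whole-number counts per transcript, not normalised, over the same 182398 rows. CASAVA 1.8, Bowtie2 2.1.0, TopHat2 2.0.9 and hg38 are named per the submitters' processing notes, and RNase I footprinting with rRNA depletion and TruSeq RNA libraries per the labels' protocols. The counting program, its strand setting and its handling of shared reads are not given in the sources used here.

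Rows identical in all 11 libraries were merged, keeping the first identifier. CPM and ratios used merged library totals. Changes were tested with edgeR 4.0.16 (R 4.3.3; robust quasi-likelihood, TMM within assay, Benjamini-Hochberg over all features with at least 10 counts in 2 or more libraries), in 6 RNA libraries, in 5 footprint libraries, and as the interaction of genotype and assay over all 11. All tests were two-sided, and an SE is the log2 change divided by the root of F. limma 3.58.1 (voom) and DESeq2 1.42.0 were alternatives. The procedure was tested on simulated data.

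Named transcripts, 1 per 20 lines, were the 6 highest in RNA, the 6 highest and 6 lowest in ratio (the highest with at least 10 counts in all 5 footprint libraries, the lowest with at least 5 CPM of RNA), the 4 most abundant without footprints, the 3 largest called rises and falls per test with a mean of at least 20 counts per group, and the 2 most abundant on either side of the length limit. None of length 0 or less had counts. The transcripts, classes and tests were chosen with earlier results of these data known. Because the members were chosen so, a planned permutation test of their median ratio was not run. Replicate numbers do not mark shared cultures in the labels, and libraries with the same number did not deviate together (correlations from -0.058 to 0.081), so the fits hold no replicate term.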

Additional observations from a re-analysis of the deposited data

Results flagged for a closer look

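The difference between the knockouts was itself tested, with edgeR's quasi-likelihood test, and the transcripts below differed there at an adjusted p under 0.05. In RNA, 11 tiny-frame transcripts did so. Among those with enough counts, the log2 change from knockout 1 to knockout 2 was 0.62 for uc060akn.1, 0.60 for uc058fno.1, 0.49 for uc060qxp.1, -2.07 for uc065apf.1 and -0.86 for uc064yej.1. The calls on uc060akn.1 and uc060qxp.1 were lost without any 1 of the 4 knockout RNA libraries, and the change of uc058fno.1 was 0.37 without knockout 2 replicate 2 (adjusted p = 0.128). In footprints 22 did so, with 1.07 for uc059fqv.1, 0.91 for uc063kok.1, 0.64 for uc058pqq.1, -1.11 for uc064yej.1, -0.98 for uc060ide.1 and -0.72 for uc062wte.1. The footprint change of uc058pqq.1 was 0.30 without knockout 1 replicate 1, 0.25 without knockout 2 replicate 1 and 1.04 without knockout 1 replicate 2, and its adjusted p by DESeq2 was 0.764. In translational efficiency 1 did so, uc065ahf.1 at -0.80, and its call was lost in 4 of 15 alternatives. With at most 2 libraries a group, no library could be examined as standing apart from its group.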

How the results depend on the processing

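Counts of called tiny-frame transcripts are given in the order knockout 1 against wild type, knockout 2 against wild type and knockout 2 against knockout 1. With a length limit of 20, RNA calls were 4, 7 and 2 of 299, in place of 858 tested under the rule. Footprint calls were 10, 21 and 10 of 73, in place of 277, and translational efficiency calls 2 and 7 of 73 in the first pair. With a limit of 50 RNA calls were 40, 147 and 58 of 3066. Footprint calls were 87, 200 and 93 and translational efficiency calls 28, 119 and 7, each of 1283, as the set itself changed size. The shares over all features tested, given above, do not change with the limit. DESeq2 gave 4 and 8 RNA calls against wild type and 4, 8 and 1 footprint calls, and limma-voom gave 2 translational efficiency calls in knockout 1; the cause was not tested. Between the knockouts, translational efficiency calls were 3 without a count minimum and 2 from the knockout libraries alone, a fit added after seeing the data. Leaving out each library in turn gave 1 to 19, 11 to 52 and 5 to 15 RNA calls, 8 to 32, 22 to 51 and 6 to 22 footprint calls, and 0 to 13, 10 to 25 and 0 to 2 translational efficiency calls.

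With replicate number as a block, RNA calls in knockout 1 were 11 and translational efficiency calls between the knockouts 8; the numbers do not pair the libraries.

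The median ratio ranged from 0.490 to 0.518 in wild type, 0.479 to 0.488 and 0.501 to 0.514 in knockout 1 and 0.495 to 0.529 and 0.508 to 0.514 in knockout 2 when an RNA library was left out. TMM library sizes gave 0.546 in wild type, above 0.480, 0.509, 0.463 and 0.498 in the knockout libraries. Ratios of sums were 0.734, 0.676, 0.701, 0.739 and 0.715 in the order wild type, knockout 1 and knockout 2. In that order the medians were 0.351, 0.347, 0.343, 0.348 and 0.362 with a limit of 20, and 0.630, 0.627, 0.646, 0.651 and 0.618 with a limit of 50. With a mean RNA count over 100 they were 0.396, 0.382, 0.351, 0.448 and 0.438, and with 10 to 50 the knockout libraries gave 0.517, 0.572, 0.525 and 0.570; both strata were added after seeing the data. Transcripts with footprints numbered 772 at 1 count, 109 at 30 counts and 234 to 268 without 1 library. Of 383 alternative values for 41 named changes, 0 reversed and 80 no longer passed the threshold, and 11 changes passed under every alternative run. Alternatives that gave no adjusted p for a change were left out of these counts. Some of the alternatives drop a library outside the comparison. Depth limits the set: the median tested transcript had 16 wild-type footprint counts.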
